A study of Homo sapiens with 18 samples.

Results

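The 10 genes whose messenger RNA marked the response of a leukaemia line to a gamma-secretase inhibitor are described here across all 18 RNA-seq libraries of the study: LGALS1, RHEX, HEMGN, ANKRD1, OLFM4, AMIGO3, RXRA, KRT1, ACY3 and CASTOR1. They were picked by name, for large or genotype-dependent differences in the inhibitor-treated libraries, with no numerical threshold. All 10 were found among the 58735 genes of the deposited table and all 10 passed the count filter that left 17346 genes. The cells were of the established human line RPMI-8402, from a T-cell acute lymphoblastic leukaemia (T-ALL), and carried either a knockout of PIK3R1 (KO) or a non-targeting control (NT). PIK3R1 encodes p85alpha, which binds and restrains the catalytic subunits of phosphoinositide 3-kinase. Each genotype was kept for 24 h with a gamma-secretase inhibitor (GSI, LY in the sample titles), with the NOTCH inhibitor CB-103 or with the vehicle DMSO. The 6 groups were thus KO GSI, NT GSI, KO CB-103, NT CB-103, KO DMSO and NT DMSO, with 3 libraries each, all in serum-supplemented growth medium. The sources used here give neither doses nor whether the knockout is a clone or a pool of cells. Nothing in the labels says that replicates were separate cultures, so p-values measure only the spread between these libraries, which may be technical.

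Gamma-secretase is the membrane protease that cuts ligand-activated NOTCH receptors and so releases their intracellular domain. In the nucleus this domain joins the DNA-binding protein RBPJ and Mastermind co-activators and switches on genes such as HES1, DTX1 and MYC, a programme on which many T-ALL cells depend. GSI acts on the cut itself, whereas CB-103 acts on the assembly of the nuclear complex, so the 2 compounds meet the same pathway at different steps and are not structural analogs. Of the 10 genes, LGALS1 encodes galectin-1, a secreted sugar-binding lectin. RHEX encodes a membrane protein of erythropoietin receptor signalling in human erythroid progenitors, and HEMGN encodes hemogen, a nuclear protein of blood progenitors. ANKRD1 encodes an ankyrin-repeat cofactor known from heart muscle and as a YAP and TEAD target, OLFM4 a secreted glycoprotein of intestinal crypt cells and neutrophils, and ACY3 an aminoacylase. RXRA encodes a nuclear receptor that pairs with the retinoic acid, vitamin D and other receptors. CASTOR1 is a cytosolic arginine sensor upstream of mTORC1, AMIGO3 an adhesion protein with leucine-rich repeats, and KRT1 a type II keratin of the upper epidermis that pairs with KRT10.

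Because NOTCH acts through RBPJ, and because HEMGN is a known target of GATA factors and ANKRD1 of TEAD factors, the stretch around the annotated start of 5 genes is shown. ANKRD1 and OLFM4 are shown as genes far below DMSO with both inhibitors, HEMGN and RXRA as genes that shifted in opposite directions with them, and RHEX because its window lies at its inner starts. The windows of CASTOR1 and AMIGO3, which also shifted in opposite directions in NT cells, were searched but are not printed. The sequences are RefSeq windows on GRCh38.p14, from 250 bases before to 50 bases after the start, read 5′ to 3′ on the gene's strand. Such windows were found for 7 of the 10 genes, and LGALS1, KRT1 and ACY3 had none. Capitals mark the RBPJ core TGGGAA, the GATA motif AGATAA, the TEAD motif GGAATG or the E box CACGTG, searched on both strands, and no base belonged to more than 1 match.
ANKRD1, chr10:90921038-90921337, minus strand: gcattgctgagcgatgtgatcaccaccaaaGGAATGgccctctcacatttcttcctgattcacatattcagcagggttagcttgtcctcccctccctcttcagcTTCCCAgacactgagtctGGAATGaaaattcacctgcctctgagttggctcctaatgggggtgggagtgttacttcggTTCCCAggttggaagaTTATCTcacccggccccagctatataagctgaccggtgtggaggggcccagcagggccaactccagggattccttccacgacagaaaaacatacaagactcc
OLFM4, chr13:53028563-53028862, plus strand: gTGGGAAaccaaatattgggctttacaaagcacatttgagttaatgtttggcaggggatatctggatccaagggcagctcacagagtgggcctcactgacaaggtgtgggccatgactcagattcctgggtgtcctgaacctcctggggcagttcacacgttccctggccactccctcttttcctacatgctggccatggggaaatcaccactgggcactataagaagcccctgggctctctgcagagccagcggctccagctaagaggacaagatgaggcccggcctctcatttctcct
RHEX, chr1:206083345-206083644, plus strand: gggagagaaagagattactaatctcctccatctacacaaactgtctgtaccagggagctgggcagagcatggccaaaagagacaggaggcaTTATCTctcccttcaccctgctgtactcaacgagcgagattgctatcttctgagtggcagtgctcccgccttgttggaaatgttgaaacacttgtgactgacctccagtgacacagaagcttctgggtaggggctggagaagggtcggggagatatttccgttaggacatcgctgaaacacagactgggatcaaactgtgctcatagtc
HEMGN, chr9:97944803-97945102, minus strand: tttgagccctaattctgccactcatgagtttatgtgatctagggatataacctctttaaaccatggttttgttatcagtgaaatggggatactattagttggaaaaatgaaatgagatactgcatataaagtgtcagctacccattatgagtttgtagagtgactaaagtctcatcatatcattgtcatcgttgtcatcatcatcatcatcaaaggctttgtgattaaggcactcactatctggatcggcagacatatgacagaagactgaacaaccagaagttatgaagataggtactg
RXRA, chr9:134326205-134326504, plus strand: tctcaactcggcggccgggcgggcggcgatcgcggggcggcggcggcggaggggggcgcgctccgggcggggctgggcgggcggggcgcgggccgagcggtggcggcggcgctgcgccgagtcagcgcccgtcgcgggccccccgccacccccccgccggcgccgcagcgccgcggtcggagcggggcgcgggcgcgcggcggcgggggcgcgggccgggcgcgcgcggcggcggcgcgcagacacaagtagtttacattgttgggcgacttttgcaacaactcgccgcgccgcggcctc

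ANKRD1 had the most matches of the 5 windows shown. Its RBPJ cores began at positions -146 and -68 from the start, both on the other strand, its TEAD motifs at -220 and -128, and a GATA motif on the other strand at -52. OLFM4 had an RBPJ core at -249 and RHEX a GATA motif on the other strand at -159. The HEMGN and RXRA windows above held none of the 4 motifs, while a second HEMGN window at chr9:97938123-97938422 had a GATA motif at -114 and an RBPJ core at 44. Neither the AMIGO3 and CASTOR1 windows nor a second RXRA window held any. Of 35116 windows of the same length, 24% held the RBPJ core, 10.3% the GATA motif, 14% the TEAD motif and 7.26% the E box. The RXRA window was 84% G and C and the HEMGN window 37.3%, against a median of 58.7% over all windows. A match is a description of these letters and not evidence of a bound factor. Only the exact letters were searched, so other forms of the motifs, such as other GATA sites, were not counted.

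Libraries held 30416183 to 43558387 estimated reads and are compared below as CPM, which are counts scaled to a common library size by trimmed mean of M values. A gene passed, or was called, at an edgeR adjusted p under 0.05 over all genes tested, and errors of log2 fold changes are SE. The knockout was checked first. PIK3R1 stood at 27.8 ± 4.2 CPM in KO GSI and 53.6 ± 3.2 CPM in NT GSI libraries, and at 22.5 ± 1.0 CPM in KO DMSO and 44.1 ± 1.5 CPM in NT DMSO libraries (SD, n = 3 each). Under CB-103 it was 27.8 ± 2.0 CPM in KO and 31.1 ± 2.2 CPM in NT cells, a difference that did not pass (log2 fold change -0.16 ± 0.09 SE, edgeR adjusted p = 0.17). The transcript level thus checks the knockout label under GSI and DMSO only. All 10 T-ALL markers were detected at a mean of at least 1 CPM over the 18 libraries, and the list summed to 1068 to 2084 CPM. Erythroid markers, which bear on RHEX and HEMGN, were not: 0 of 10 reached 1 CPM, HBA1, HBB and HBG1 were at 0 in all 18 libraries, and the list summed to at most 1.05 CPM. Muscle markers reached that mean for 0 of 5 genes and myeloid markers for 0 of 9, with MYL2 and ELANE at 0 throughout. In single groups the myeloid genes ITGAM and LYZ averaged more, with ITGAM at 1.55 CPM in KO GSI and LYZ at 1.31 CPM in NT GSI libraries. Of 7 keratinocyte and epithelial markers only KRT10 did, and of 4 mesenchymal markers only COL1A1. The B-cell receptor gene CD79B averaged 2.85 CPM in KO GSI and 0.559 CPM in NT GSI libraries.

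**Figure D1:**
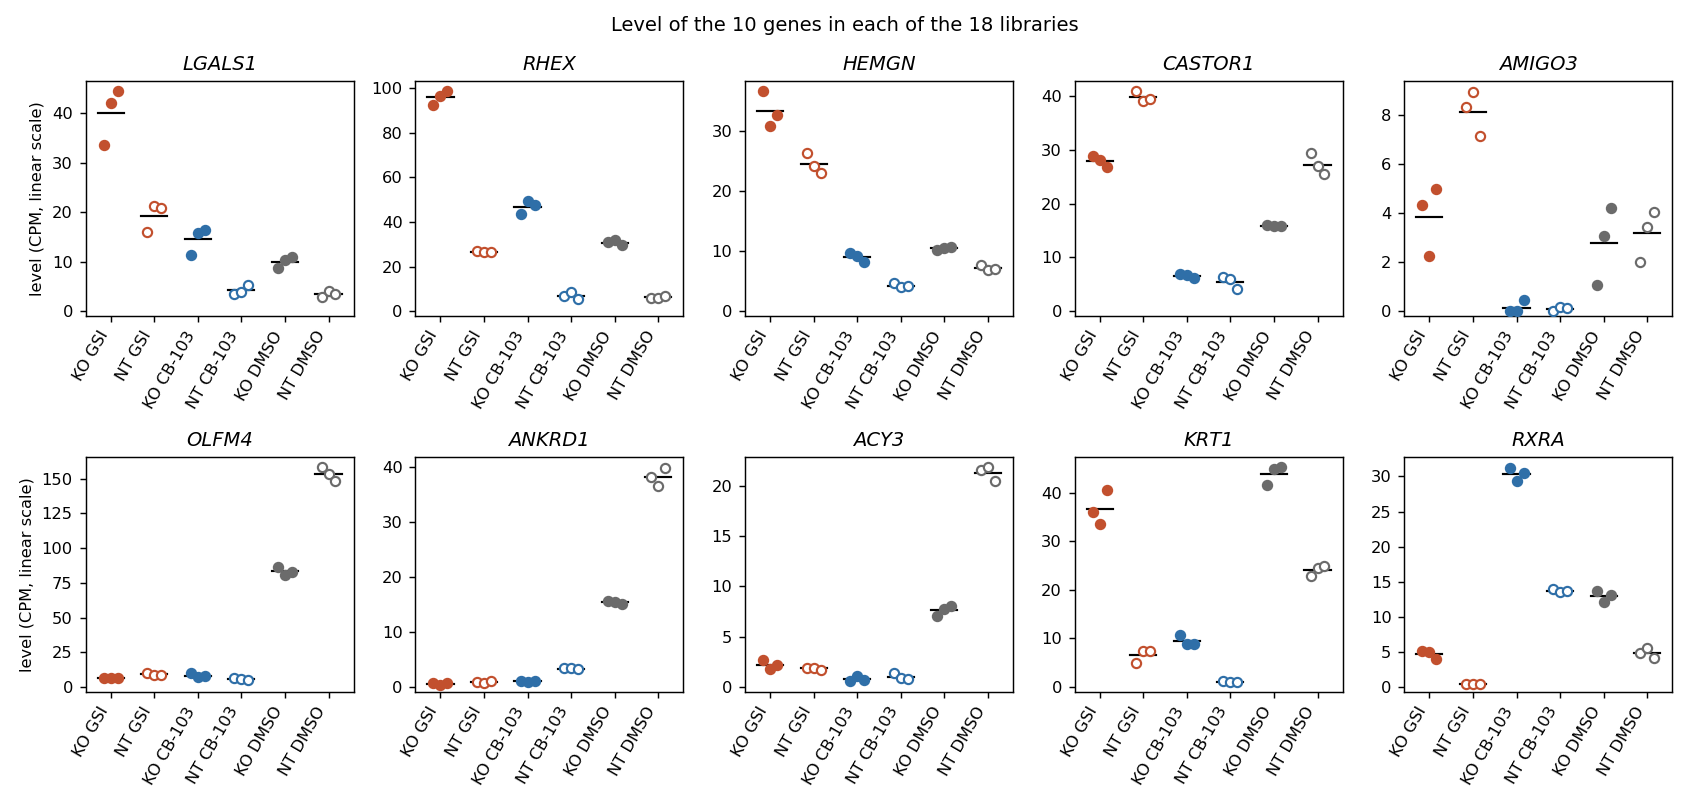
Level of each of the 10 genes (CPM, linear scale from 0) in every library, grouped by genotype and treatment, with filled circles for KO, open circles for NT and a black line at the mean of 3 libraries. RHEX reaches 98.4 CPM in KO GSI libraries, OLFM4, ANKRD1 and ACY3 are low with either inhibitor, and RXRA is high with CB-103 and lowest in NT GSI libraries.

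LGALS1, RHEX and HEMGN were higher with GSI than with DMSO in both genotypes, and all 3 were also higher in KO than in NT cells under each treatment. These GSI values led to the choice of the genes and are given as a description without a test. In KO cells LGALS1 was 33.6, 42.1 and 44.4 CPM with GSI, against 8.71, 10.4 and 10.9 CPM with DMSO. The NT values were 15.97, 21.2 and 20.9 CPM with GSI, against 2.93, 4.13 and 3.47 CPM with DMSO. The GSI libraries lay above the DMSO libraries of their genotype throughout, and replicate 1 had the lowest LGALS1 value of its group in 6 of 6 groups. For CASTOR1 it had the highest value in 6 of 6 groups, and for HEMGN and OLFM4 in 5 of 6. The log2 fold changes over DMSO were 2.00 ± 0.17 in KO and 2.46 ± 0.18 in NT cells (SE).

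RHEX had the highest CPM values of the 3 genes. It stood at 92.2, 96.5 and 98.4 CPM in KO GSI and 30.9, 31.7 and 29.8 CPM in KO DMSO libraries. In NT cells it stood at 26.9, 26.5 and 26.6 CPM with GSI and 6.13, 6.02 and 7.04 CPM with DMSO. NT cells with GSI therefore stayed below KO cells with DMSO, with no overlap. The log2 fold changes were 1.64 ± 0.09 in KO and 2.05 ± 0.10 in NT cells. HEMGN was 36.8, 30.9 and 32.7 CPM in KO GSI and 10.3, 10.6 and 10.8 CPM in KO DMSO libraries. In NT cells HEMGN was 26.4, 24.2 and 23.1 CPM with GSI and 7.77, 6.88 and 7.09 CPM with DMSO. Its responses, 1.67 ± 0.09 in KO and 1.76 ± 0.09 in NT cells, were the most alike between genotypes of the 10 genes, with a KO minus NT difference of -0.09 ± 0.12. NT GSI libraries lay above all DMSO libraries of either genotype.

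With CB-103 this trio parted. LGALS1 was 11.4, 15.8 and 16.4 CPM in KO CB-103 libraries and 3.52, 3.89 and 5.25 CPM in NT CB-103 libraries. RHEX was 43.4, 49.2 and 47.6 CPM in KO CB-103 libraries and 7.07, 8.57 and 5.59 CPM in NT CB-103 libraries. In KO cells both rose over DMSO, LGALS1 by 0.54 ± 0.17 (edgeR adjusted p = 0.013) and RHEX by 0.60 ± 0.09 (edgeR adjusted p = 1.8e-05) on the log2 scale. In NT cells the libraries overlapped with DMSO and the differences of 0.26 ± 0.20 for LGALS1 (edgeR adjusted p = 0.27) and 0.14 ± 0.11 for RHEX (edgeR adjusted p = 0.31) did not pass. The KO call of LGALS1 was lost without KO CB-103 replicate 2 (adjusted p = 0.056) or 3 (0.072) or KO DMSO replicate 1 (0.059), and RHEX in NT cells was called without NT CB-103 replicate 3 (log2 fold change 0.27, adjusted p = 0.022). HEMGN went the other way, with 9.65, 9.27 and 8.17 CPM in KO CB-103 and 4.65, 4.01 and 4.25 CPM in NT CB-103 libraries. It fell by 0.75 ± 0.10 on the log2 scale in NT cells (edgeR adjusted p = 2.2e-06). The KO value of -0.22 ± 0.09 passed narrowly (edgeR adjusted p = 0.046) and was lost with DESeq2 (0.056) and limma-voom (0.077). It was also lost without KO CB-103 replicate 2 or 3, any KO DMSO library, KO GSI replicate 3, NT GSI replicate 2, NT CB-103 replicate 3, or NT DMSO replicate 2 or 3, at adjusted p values up to 0.20.

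With GSI more erythroid genes were called higher, like RHEX and HEMGN, than lower, though both directions occurred. With CB-103 most of those called fell. Of 26 genes for erythroid identity and erythropoietin receptor signalling, 13 passed the count filter. With GSI 4 rose and 2 fell in KO cells (median log2 fold change 0.27). These are 30.8% higher and 15.4% lower, against 9.69% and 9.58% of all genes tested, whose median was -0.004. In NT cells 5 rose and 2 fell (median 0.02). These are 38.5% higher and 15.4% lower, against 9.67% and 15% of all genes, whose median was 0.011. GFI1B, a transcriptional repressor needed in erythroid and megakaryocyte development, rose in KO cells to 37.1 CPM with GSI, against 16.03 CPM with DMSO, and in NT cells to 35.2 CPM, against 14.1 CPM (edgeR adjusted p = 2.1e-08 and 5.0e-09). NFE2, a globin gene activator, also rose, by 0.50 ± 0.06 in KO and 0.44 ± 0.06 in NT cells on the log2 scale. The transferrin receptor TFRC fell in both genotypes, by 0.44 ± 0.05 and 0.61 ± 0.05. With CB-103, 1 rose and 8 fell in KO cells (median -0.49) and 2 rose and 8 fell in NT cells (median -0.35). Thus 61.5% were lower in each genotype, against 23.7% of all genes in KO and 28.7% in NT cells. Higher were 7.69% in KO and 15.4% in NT cells, against 24.9% and 29.5% of all genes. The falls were led by TFRC at -1.13 ± 0.05 in KO and -1.83 ± 0.05 in NT cells, followed by STAT5A. EPOR, the erythropoietin receptor itself, rose in KO cells, at 18.2 CPM with CB-103 and 11.9 CPM with DMSO (edgeR adjusted p = 7.3e-06). GFI1B fell in NT cells with CB-103, to 6.80 CPM against 14.1 CPM with DMSO (edgeR adjusted p = 2.7e-08), so GFI1B, like HEMGN, was up with GSI and down with CB-103 in NT cells.

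ANKRD1, OLFM4 and ACY3 were far below DMSO with either inhibitor. ANKRD1 was 0.656, 0.369 and 0.693 CPM in KO GSI and 1.02, 0.939 and 1.15 CPM in KO CB-103 libraries, against 15.6, 15.5 and 15.1 CPM in KO DMSO libraries. The NT values were 0.826, 0.705 and 1.01 CPM with GSI and 3.40, 3.38 and 3.29 CPM with CB-103, against 38.2, 36.4 and 39.8 CPM with DMSO. Its GSI log2 fold changes were -4.75 ± 0.15 in KO and -5.48 ± 0.14 in NT cells. With CB-103 ANKRD1 fell by 3.89 ± 0.13 in KO cells (edgeR adjusted p = 1.5e-13) and by 3.50 ± 0.12 in NT cells (edgeR adjusted p = 5.8e-14). The difference between these CB-103 responses, -0.38 ± 0.18, did not pass (edgeR adjusted p = 0.17).

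OLFM4 was 6.17, 6.58 and 6.55 CPM in KO GSI and 9.98, 6.92 and 7.79 CPM in KO CB-103 libraries, against 86.5, 80.8 and 83.0 CPM in KO DMSO libraries. NT cells had 10.2, 8.74 and 8.58 CPM with GSI and 6.86, 5.48 and 5.22 CPM with CB-103, against 158, 153 and 148 CPM with DMSO. The 4 inhibitor groups thus came down to a narrow band although the genotypes differed with DMSO. With CB-103 OLFM4 fell 10.1-fold in KO cells (edgeR adjusted p = 5.4e-14) and 25.99-fold in NT cells (edgeR adjusted p = 8.7e-16), and with GSI it was 12.96-fold and 16.7-fold lower. ACY3 was 2.71, 1.82 and 2.17 CPM in KO GSI and 0.599, 1.14 and 0.661 CPM in KO CB-103 libraries, against 7.11, 7.75 and 8.003 CPM in KO DMSO libraries. In NT cells it was 1.93, 1.93 and 1.69 CPM with GSI and 1.39, 0.924 and 0.816 CPM with CB-103, against 21.6, 21.8 and 20.5 CPM with DMSO. As for OLFM4, the genotypes lay closer together in the inhibitor groups than in the DMSO groups. ACY3 fell 9.47-fold with CB-103 in KO cells (edgeR adjusted p = 6.4e-10) and 20.1-fold in NT cells (edgeR adjusted p = 4.9e-12), and was 3.41-fold and 11.5-fold lower with GSI.

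Known NOTCH targets fell alongside. Of 19 listed targets 15 passed the count filter. With GSI 0 rose and 11 fell in KO cells (median log2 fold change -1.34) and 1 rose and 10 fell in NT cells (median -1.45). In KO cells 73.3% were thus lower, against 9.58% of all genes. In NT cells 66.7% were lower, against 15% of all genes. With CB-103 0 rose and 14 fell in both genotypes, with a median of -1.15 in KO and -1.63 in NT cells, against medians of -0.009 and 0.043 over all genes and 23.7% and 28.7% of all genes lower. The complement receptor gene CR2 was 6.34 CPM in KO cells with GSI, 16.2 CPM with CB-103 and 137 CPM with DMSO. In NT cells CR2 was 4.32 CPM with GSI, 9.73 CPM with CB-103 and 136 CPM with DMSO. DTX1, a ubiquitin ligase of the pathway, fell by 3.15 ± 0.09 in KO and 3.45 ± 0.08 in NT cells with GSI on the log2 scale (edgeR adjusted p = 3.2e-14 and 4.3e-15). Of 21 YAP and TEAD targets, among which ANKRD1 is usually counted, 14 passed the filter. With GSI 0 rose and 3 fell in KO cells, 21.4% lower where 9.58% of all genes were, and 0 rose and 2 fell in NT cells, 14.3% lower where 15% of all genes were (medians -0.28 and -0.01). With CB-103 3 rose and 4 fell in each genotype, 21.4% higher and 28.6% lower (medians 0.09 in KO and 0.13 in NT cells). Of all genes 24.9% were higher and 23.7% lower in KO and 29.5% higher and 28.7% lower in NT cells. FJX1 and the stress gene GADD45A fell in both genotypes with GSI, and with CB-103 GADD45A rose to 23.9 CPM against 10.3 CPM with DMSO in KO cells and to 32.9 CPM against 11.2 CPM with DMSO in NT cells.

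RXRA was below DMSO with GSI and above it with CB-103, in both genotypes. It was 5.19, 5.02 and 3.97 CPM in KO GSI and 31.3, 29.3 and 30.5 CPM in KO CB-103 libraries, against 13.6, 12.1 and 13.1 CPM in KO DMSO libraries. NT cells had 0.426, 0.429 and 0.364 CPM with GSI and 13.9, 13.5 and 13.6 CPM with CB-103, against 4.82, 5.58 and 4.20 CPM with DMSO. Every GSI library lay below, and every CB-103 library above, the DMSO libraries of its genotype. With CB-103 RXRA rose by 1.23 ± 0.10 in KO cells (edgeR adjusted p = 8.7e-09) and by 1.5 ± 0.1 in NT cells (edgeR adjusted p = 8.6e-10) on the log2 scale, and the difference between genotypes did not pass (-0.26 ± 0.14, edgeR adjusted p = 0.24). With GSI its log2 fold changes were -1.45 ± 0.11 in KO and -3.57 ± 0.15 in NT cells. The KO minus NT difference was 2.12 ± 0.19, beside 1.75 ± 0.26 for ACY3 and 1.62 ± 0.16 for KRT1. When gene values were replaced by plain sums of the transcript estimates, the RXRA GSI values became -1.74 in KO and -2.71 in NT cells and their difference 0.97, and the CB-103 difference became a call (-0.58, edgeR adjusted p = 0.0037).

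Partners and targets of RXRA were counted next. Of 27 partners, coregulators and targets 20 passed the filter, of which 4 rose and 1 fell in KO cells and 3 rose and 2 fell in NT cells with GSI (medians -0.02 and 0.10). These are 20.0% higher and 5.0% lower in KO and 15.0% higher and 10.0% lower in NT cells, against 9.69% and 9.58% of all genes in KO and 9.67% and 15% in NT cells. ABCA1, the cholesterol exporter induced through the liver X receptor and RXR, fell by 1.84 ± 0.07 in KO and 1.51 ± 0.08 in NT cells with GSI (edgeR adjusted p = 8.4e-12 and 2.1e-10), whereas its relative ABCG1 rose by 0.48 ± 0.05 and 0.33 ± 0.05. With CB-103, 4 rose and 4 fell in KO and 5 rose and 6 fell in NT cells (medians 0.00 and -0.10). The 20 genes were thus near the shares of all genes, which were 24.9% higher and 23.7% lower in KO and 29.5% higher and 28.7% lower in NT cells. The vitamin D receptor VDR rose with RXRA, to 12.45 CPM against 5.47 CPM with DMSO in KO cells and to 18.6 CPM against 5.22 CPM with DMSO in NT cells (edgeR adjusted p = 4.8e-09 and 8.2e-12). The retinoic acid receptor RARA fell, by 0.81 ± 0.10 and 0.95 ± 0.10.

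CASTOR1 was higher with GSI than with DMSO and lower with CB-103 in both genotypes, as was AMIGO3 in NT cells. CASTOR1 was 28.8, 28.1 and 26.9 CPM in KO GSI and 6.92, 6.72 and 6.13 CPM in KO CB-103 libraries, against 16.1, 15.8 and 15.8 CPM in KO DMSO libraries. In NT cells it was 40.9, 39.0 and 39.5 CPM with GSI and 6.28, 6.08 and 4.14 CPM with CB-103, against 29.3, 26.9 and 25.4 CPM with DMSO. No GSI or CB-103 library overlapped the DMSO libraries of its genotype, and KO GSI overlapped NT DMSO. With CB-103 CASTOR1 fell 2.41-fold in KO (edgeR adjusted p = 1.7e-08) and 4.93-fold in NT cells (edgeR adjusted p = 3.6e-12), and with GSI it was 1.76-fold and 1.46-fold higher. Of 35 genes that carry amino acid signals to mTORC1, 34 passed the filter. With GSI 7 rose and 8 fell in KO and 5 rose and 8 fell in NT cells, and with CB-103 9 rose and 9 fell in KO and 12 rose and 14 fell in NT cells. With GSI 20.6% were thus higher and 23.5% lower in KO cells, against 9.69% and 9.58% of all genes, and 14.7% and 23.5% in NT cells, against 9.67% and 15%. With CB-103 26.5% went each way in KO cells, near the 24.9% and 23.7% of all genes, and 35.3% were higher and 41.2% lower in NT cells, against 29.5% and 28.7%. The leucine sensor SESN2 rose with CB-103 to 106 CPM in KO cells, against 23.2 CPM with DMSO, and to 110 CPM in NT cells, against 25.5 CPM with DMSO (edgeR adjusted p = 8.8e-15 and 5.7e-15). In NT cells with GSI SESN2 fell by 0.56 ± 0.06 on the log2 scale, so it moved against CASTOR1 with each inhibitor there. The lysosomal arginine sensor SLC38A9 rose with CB-103 as well, by 0.82 ± 0.08 in KO and 1.07 ± 0.08 in NT cells.

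AMIGO3 had the fewest reads. It was 4.32, 2.27 and 4.97 CPM in KO GSI, 0, 0 and 0.460 CPM in KO CB-103 and 1.06, 3.05 and 4.20 CPM in KO DMSO libraries. The NT values were 8.31, 8.93 and 7.12 CPM with GSI, 0, 0.159 and 0.117 CPM with CB-103 and 2.02, 3.42 and 4.06 CPM with DMSO. KO GSI and KO DMSO overlapped, and the CB-103 values stood on 0, 0 and 16 estimated reads in KO and 0, 5 and 4 in NT libraries. With CB-103 the log2 fold change was -4.12 ± 0.76 in KO (edgeR adjusted p = 0.00019) and -5.17 ± 0.83 in NT cells (edgeR adjusted p = 3.2e-05), and in KO cells the fitted value was -9.64 without KO CB-103 replicate 3, which leaves that group at 0, so that it is no bound on the change. The value is uncertain because 99.65% of AMIGO3 exon bases are also exons of GMPPB on the same strand, so that estimated reads had to be split between them. GMPPB, an enzyme that makes the sugar donor GDP-mannose, was 97.3 CPM in KO CB-103 and 134 CPM in NT CB-103 libraries, against 36.1 CPM in KO DMSO and 33.2 CPM in NT DMSO libraries, and its part in the AMIGO3 values was not tested.

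KRT1 was below DMSO with both inhibitors, and by less in KO than in NT cells. It was 35.9, 33.6 and 40.5 CPM in KO GSI and 10.6, 8.95 and 8.83 CPM in KO CB-103 libraries, against 41.5, 44.8 and 45.2 CPM in KO DMSO libraries. In NT cells it was 4.93, 7.33 and 7.38 CPM with GSI and 1.15, 1.08 and 1.11 CPM with CB-103, against 22.8, 24.5 and 24.9 CPM with DMSO. All 6 groups were separate from their neighbours in level. KO GSI libraries lay above NT DMSO libraries, while NT GSI libraries lay below KO CB-103 libraries. With GSI the log2 fold changes were -0.26 ± 0.11 in KO and -1.88 ± 0.12 in NT cells, and with CB-103 KRT1 fell by 2.21 ± 0.12 in KO (edgeR adjusted p = 3.3e-11) and fell by 4.43 ± 0.15 in NT cells (edgeR adjusted p = 5.9e-14). Within the epithelial list, its partner keratin KRT10 was 16.95 CPM in KO GSI, 12.97 CPM in NT GSI, 18.4 CPM in KO CB-103, 13.2 CPM in NT CB-103, 16.6 CPM in KO DMSO and 12.9 CPM in NT DMSO libraries, on average over 3 libraries. KRT14 and KRTDAP were at 0 in every library, and the 7 epithelial markers together ranged from 11.9 to 19.7 CPM.

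**Figure D2:**
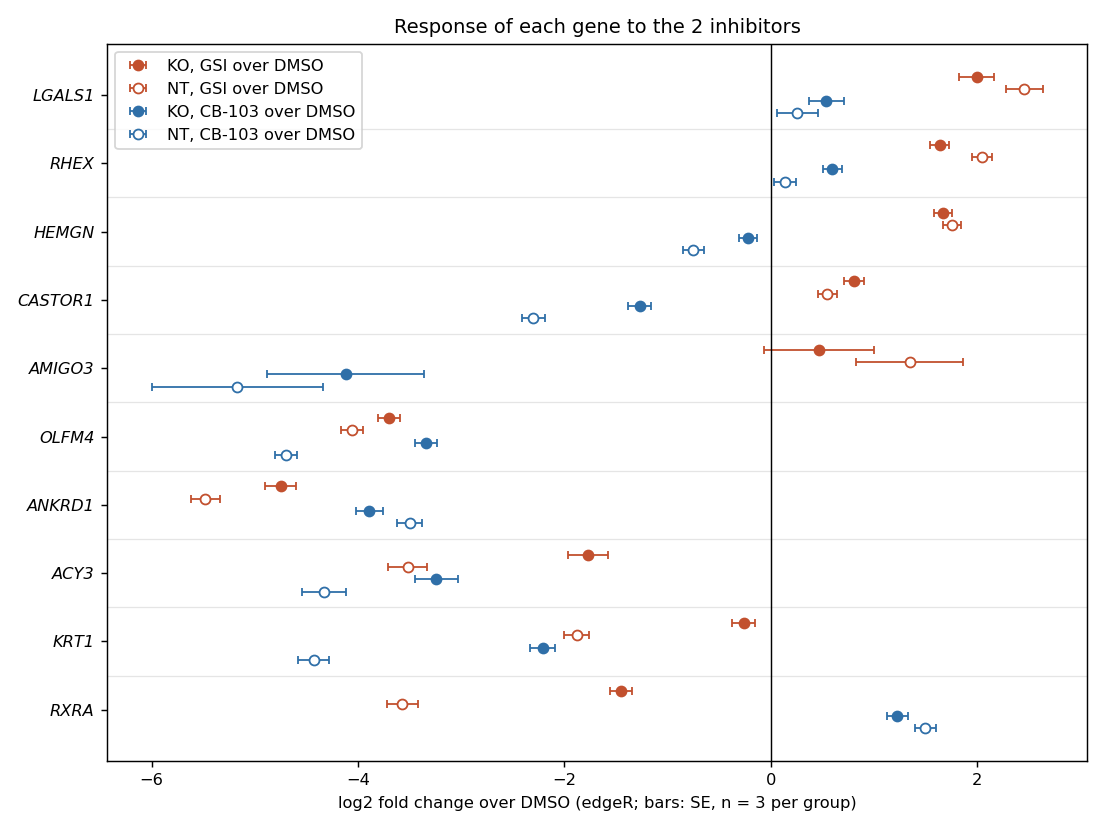
Log2 fold change of each gene over DMSO (x axis) with GSI in red and CB-103 in blue, filled for KO and open for NT cells, with bars of 1 SE (n = 3 per group). LGALS1, RHEX and HEMGN lie near 2 with GSI and between -0.75 and 0.60 with CB-103, RXRA changes side between the inhibitors, and KRT1 is nearest 0 in KO cells with GSI.

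Counted over the 10 genes, the GSI libraries did not overlap the DMSO libraries for 9 of 10 in KO and 10 of 10 in NT cells, where 35.6% and 39.7% of all tested genes were separate in this way. Those counts follow from the way the genes were picked. The CB-103 comparisons use no GSI library but share the DMSO libraries with the comparisons that led to the choice. With CB-103, 3 genes rose and 7 fell in KO cells, so that 10 of 10 were called where 48.6% of all tested genes were (24.9% higher and 23.7% lower). In NT cells 1 rose and 7 fell, so that 8 of 10 were called where 58.2% of all genes were (29.5% higher and 28.7% lower). In bulk libraries fewer cells with a transcript and less of it per cell cannot be told apart.

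The CB-103 response differed between genotypes for 6 of the 10 genes, where 14.6% of all tested genes differed. The DMSO libraries of both genotypes also served the comparisons that led to the choice, so this count is not independent of it. In all 6 the KO minus NT value was positive, a direction that 10.3% of all genes took, against 4.34% in the other. It was 2.21 ± 0.19 for KRT1 (edgeR adjusted p = 2.4e-06), 1.36 ± 0.15 for OLFM4 (1.6e-05) and 1.03 ± 0.15 for CASTOR1 (0.00021). For 5 of these genes, KRT1, OLFM4, ACY3, CASTOR1 and HEMGN, both genotypes fell and KO cells fell less. ACY3 had 1.09 ± 0.29 (edgeR adjusted p = 0.019), lost without KO CB-103 replicate 2 (0.73, adjusted p = 0.092) or NT CB-103 replicate 2 (1.00, adjusted p = 0.051) or 3 (0.94, adjusted p = 0.060). HEMGN had 0.52 ± 0.13 (edgeR adjusted p = 0.011). RHEX had 0.46 ± 0.14 (edgeR adjusted p = 0.035), which was lost without KO CB-103 replicate 2 or 3, any KO DMSO library, NT CB-103 replicate 1 or 3, or NT DMSO replicate 3, at adjusted p values of 0.053 to 0.11. The values for LGALS1, RXRA, AMIGO3 and ANKRD1 did not pass.

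Genotype was then compared within each treatment. With DMSO 5 of the genes were higher and 4 lower in KO than in NT cells, so that 9 of 10 were called where 21.4% of all tested genes were (9.78% higher and 11.7% lower). The DMSO libraries were also the baselines of the comparisons that led to the choice, so this count is not independent of it. RHEX was 4.80-fold higher in KO DMSO than in NT DMSO libraries (log2 fold change 2.26 ± 0.10, edgeR adjusted p = 6.9e-11), LGALS1 2.86-fold, RXRA 2.66-fold, KRT1 1.82-fold and HEMGN 1.45-fold. ACY3 was 2.79-fold lower (-1.48 ± 0.17, edgeR adjusted p = 5.6e-06), ANKRD1 2.48-fold, OLFM4 1.84-fold and CASTOR1 1.71-fold. AMIGO3 did not pass (-0.19 ± 0.53, edgeR adjusted p = 0.85). In this comparison the 3 genes farthest above DMSO with GSI were thus already higher in KO cells with the vehicle. Of the 7 genes that fell with CB-103, ANKRD1, OLFM4, ACY3 and CASTOR1 were lower in KO cells with the vehicle and KRT1 and HEMGN higher.

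The comparison of KO with NT cells under CB-103 shares no library with those that led to the choice. The genes were, however, also picked for genotype-dependent differences between the same KO and NT cells, so it is not fully independent of the choice. Here 6 genes were higher and 1 lower in KO cells, 7 of 10 where 37% of all tested genes were called (20.4% higher and 16.5% lower). KRT1 was 8.45-fold higher in KO CB-103 than in NT CB-103 libraries (3.08 ± 0.16, edgeR adjusted p = 2.8e-10), RHEX 6.61-fold (2.73 ± 0.10, edgeR adjusted p = 8.4e-12) and LGALS1 3.46-fold (1.79 ± 0.18, edgeR adjusted p = 6.5e-07). RXRA and HEMGN were 2.22-fold and 2.09-fold higher. ANKRD1 was 3.23-fold lower (-1.69 ± 0.14, edgeR adjusted p = 8.2e-08). OLFM4, lower in KO cells with DMSO, was here 1.397-fold higher in KO cells (0.48 ± 0.12, edgeR adjusted p = 0.0041). ACY3 (-0.40 ± 0.24, edgeR adjusted p = 0.21), CASTOR1 (0.26 ± 0.11, edgeR adjusted p = 0.089) and AMIGO3 (0.85 ± 1.23, edgeR adjusted p = 0.63) did not pass. ACY3 was called without KO CB-103 replicate 2 (-0.76, adjusted p = 0.019) and CASTOR1 without NT CB-103 replicate 1 (0.37, adjusted p = 0.025). CASTOR1 was also called when gene values were replaced by plain sums of the transcript estimates (0.36, edgeR adjusted p = 0.021).

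With GSI, where the values are again a description, KO and NT libraries did not overlap for 9 of 10 genes, against 44.8% of all tested genes. RXRA was 11.6-fold higher in KO GSI than in NT GSI libraries, KRT1 5.61-fold, RHEX 3.59-fold and LGALS1 2.07-fold. The RXRA level in NT GSI libraries rests on only 14 to 17 estimated reads per library. AMIGO3 was 2.11-fold, ANKRD1 1.499-fold, OLFM4 1.43-fold and CASTOR1 1.42-fold lower. For RXRA the KO over NT log2 fold change was 3.53 ± 0.15 with GSI, 1.15 ± 0.10 with CB-103 and 1.41 ± 0.10 with DMSO. For KRT1 it was 2.49 ± 0.12 with GSI, 3.08 ± 0.16 with CB-103 and 0.86 ± 0.11 with DMSO. RHEX kept a value between 1.84 and 2.73 with all 3 treatments in this fit. When gene values were replaced by plain sums of the transcript estimates, the values under GSI became 2.75 for RXRA, 2.09 for KRT1 and 1.49 for RHEX.

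**Figure D3:**
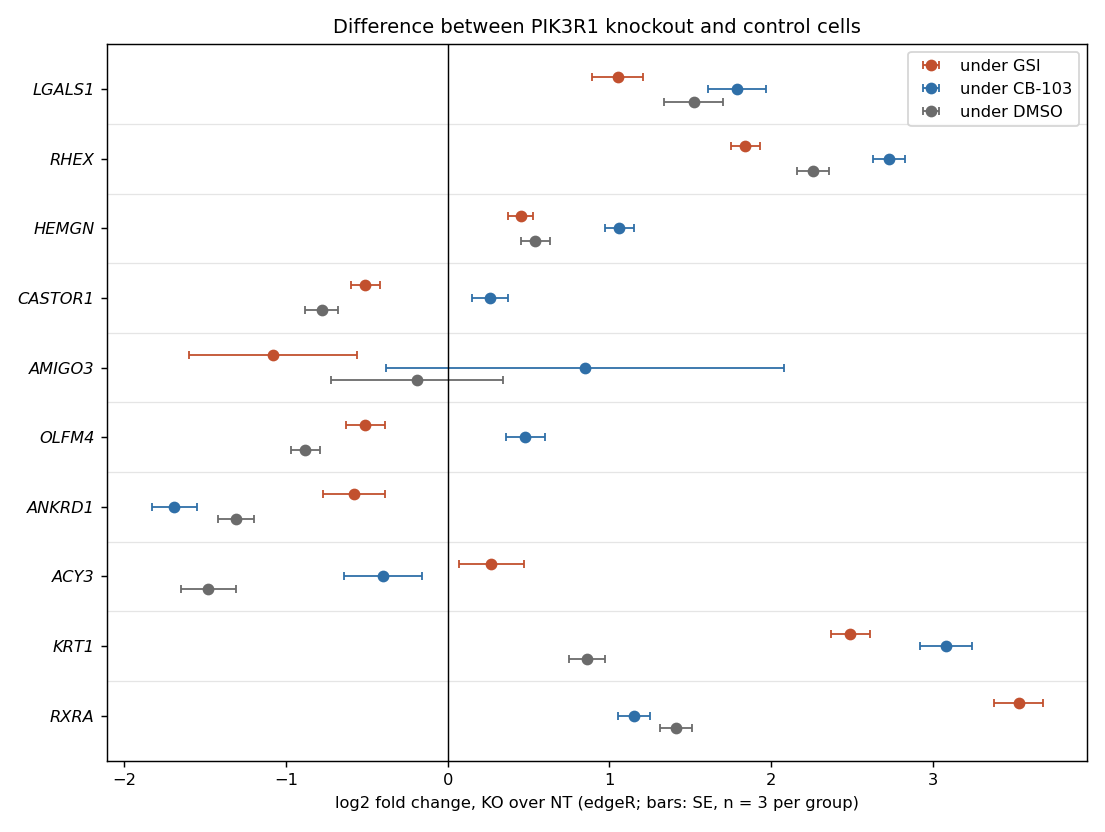
Log2 fold change of each gene in KO over NT cells (x axis) under GSI in red, CB-103 in blue and DMSO in grey, with bars of 1 SE (n = 3 per group). RHEX, LGALS1, HEMGN, KRT1 and RXRA are higher in KO cells with all 3 treatments, ANKRD1 is lower with all 3, and RXRA under GSI stands farthest from 0 at 3.53.

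Close relatives of the 10 genes were counted next. Of 30 relatives, 14 passed the filter, and with GSI 1 rose and 1 fell in KO cells and 0 rose and 2 fell in NT cells. In KO cells 7.14% were thus higher and 7.14% lower, against 9.69% and 9.58% of all genes. In NT cells 14.3% were lower, against 15% of all genes, and 0% higher, against 9.67%. The galectin LGALS12 was opposite to LGALS1, at 2.56 CPM with GSI and 15.7 CPM with DMSO in KO cells and 0.464 CPM with GSI and 7.52 CPM with DMSO in NT cells (edgeR adjusted p = 2.2e-09 and 3.8e-11). LGALS9 rose with GSI in KO cells (0.35 ± 0.07, edgeR adjusted p = 0.0013) and fell with CB-103 in NT cells to 12.46 CPM, against 84.4 CPM with DMSO (edgeR adjusted p = 5.7e-15). KRT2, a neighbour of KRT1 in the type II keratin family, fell with CB-103 in NT cells to 0.772 CPM, against 3.26 CPM with DMSO. Under CB-103 KRT2 was higher in KO cells, at 2.35 CPM, than in NT cells, at 0.772 CPM (edgeR adjusted p = 5.4e-06), as KRT1 was. The CASTOR1 paralog CASTOR2 was also higher in KO cells under CB-103, at 3.83 CPM against 2.60 CPM in NT cells (edgeR adjusted p = 0.013).

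Compared per length, as TPM, which scales the estimates by transcript length and library size, the genes spanned a wide range of level. In KO GSI libraries LGALS1 was highest of the 10, at 136 ± 18 TPM, followed by RHEX at 103.3 ± 2.4 TPM, while ANKRD1 was lowest, at 0.394 ± 0.119 TPM (SD, n = 3). In NT DMSO libraries OLFM4 was highest, at 79.3 ± 2.7 TPM, and RXRA lowest, at 1.53 ± 0.24 TPM, close to AMIGO3 at 1.58 ± 0.52 TPM. Within each gene, groups adjacent in CPM overlapped for LGALS1 between NT GSI and KO CB-103 and between NT CB-103 and NT DMSO. RHEX overlapped only between NT CB-103 and NT DMSO, and HEMGN and KRT1 had no overlapping neighbours among their 6 groups. ANKRD1 overlapped between KO CB-103 and NT GSI, OLFM4 between NT GSI and KO CB-103 and between KO GSI and NT CB-103, and ACY3 between KO GSI and NT GSI and between NT CB-103 and KO CB-103. RXRA overlapped between NT CB-103 and KO DMSO and between KO GSI and NT DMSO, and CASTOR1 between KO GSI and NT DMSO and between KO CB-103 and NT CB-103. AMIGO3 overlapped between KO GSI and NT DMSO, between NT DMSO and KO DMSO and between KO CB-103 and NT CB-103.

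The annotated transcripts behind the gene values were examined for all 10 genes, as estimates without a test. In TPM the same transcript led in all 6 groups for 8 of 10 genes, the exceptions being RXRA and KRT1, whereas in estimated reads, which are not divided by length, it did for 10 of 10. RHEX has an upstream start, used by RHEX-201, and inner starts used by RHEX-203 and RHEX-204, whose promoter window is the one shown. The inner starts carried 47.0 ± 2.4% of RHEX in KO GSI and 19.4 ± 4.3% in NT GSI libraries, 49.4 ± 1.2% in KO CB-103 and 21.7 ± 1.6% in NT CB-103 libraries, and 40.3 ± 5.5% in KO DMSO and 12.2 ± 4.3% in NT DMSO libraries (SD, n = 3 each). The lowest KO library had 36.4% and the highest NT library 23.5%, so the genotypes did not overlap. In TPM the inner starts gave 48.6 ± 3.5 in KO GSI and 14.3 ± 1.9 in KO DMSO libraries, and 5.91 ± 1.44 in NT GSI and 0.840 ± 0.327 in NT DMSO libraries. The upstream start gave 49.0 ± 0.9 TPM in KO GSI and 18.8 ± 1.7 TPM in KO DMSO libraries, and 21.9 ± 0.35 TPM in NT GSI and 5.59 ± 0.56 TPM in NT DMSO libraries. RHEX shares 19.3% of its exon bases with the same-strand locus BX571818.1, which averaged 119.5 CPM in KO GSI and 50.4 CPM in KO DMSO libraries, and 79.1 CPM in NT GSI and 24.3 CPM in NT DMSO libraries. Reads in the shared exons cannot be told apart.

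For KRT1 the retained-intron transcript KRT1-202 carried 69.2 ± 2.9% of the estimate in KO GSI and 51.6 ± 8.2% in NT GSI libraries, and 60.7 ± 1.8% in KO DMSO and 43.8 ± 1.7% in NT DMSO libraries. In NT CB-103 libraries it carried 11.2 ± 9.7%, of a total of 0.946 TPM, against 58.8 ± 4.1% in KO CB-103 libraries. The coding transcript KRT1-201 stood at 9.33 ± 0.19 TPM in KO GSI and 15.3 ± 1.1 TPM in KO DMSO libraries, and at 2.71 ± 0.32 TPM in NT GSI and 11.1 ± 0.4 TPM in NT DMSO libraries. The coding KRT1 estimate was thus below DMSO with GSI in KO cells as well. For RXRA the coding transcript RXRA-202 was listed at 0 TPM in all 3 NT GSI libraries, against 1.01 TPM on average in NT DMSO libraries, and the processed transcript RXRA-201 carried all of the remaining 0.134 TPM. In KO GSI libraries RXRA-202 averaged 0.803 TPM and in KO DMSO libraries 1.97 TPM. CASTOR1 shares 45.96% of its exon bases with AC004997.1 on the same strand, which averaged at most 2.04 CPM in any group.

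**Figure D4:**
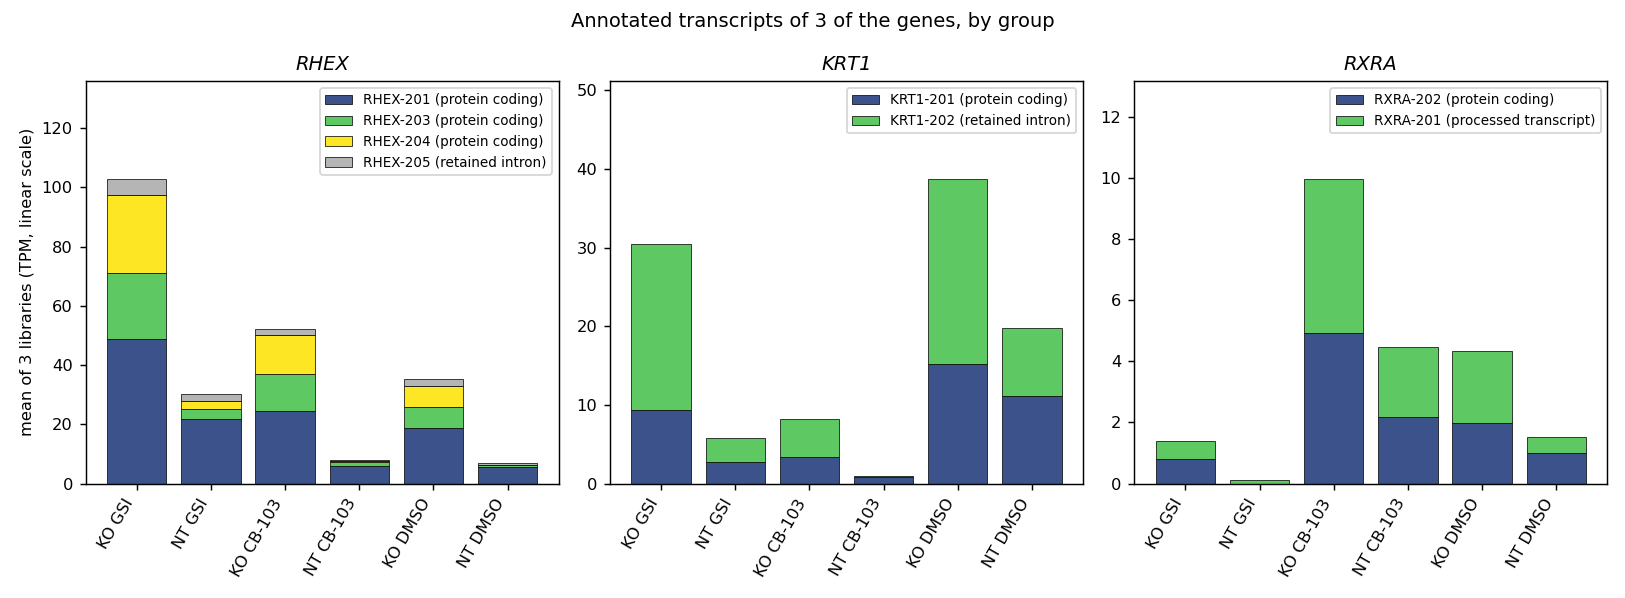
Mean TPM of annotated transcripts of RHEX, KRT1 and RXRA in each group (stacked bars from 0, linear scale, mean of 3 libraries). Inner-start RHEX-203 and RHEX-204 make up 47.0% of RHEX in KO GSI and 19.4% in NT GSI libraries, KRT1-202 is 69.2% of KRT1 in KO GSI libraries, and only RXRA-201 remains in NT GSI libraries.

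The 2 genes whose level was most like each member over the 18 libraries were found by Pearson's r on log2 CPM, among genes that averaged 5 CPM or more. These r values are descriptions and share the libraries, their depth and the 6 groups. ANKRD1 was nearest to LMO1 (r = 0.991), an oncogenic partner of TAL1 in T-ALL, and to DTX1 (r = 0.984). LMO1 stood at 13.9 CPM in KO GSI, 22.2 CPM in KO CB-103 and 120 CPM in KO DMSO libraries, and at 23.1 CPM in NT GSI, 41.0 CPM in NT CB-103 and 195 CPM in NT DMSO libraries. OLFM4 was nearest to the deubiquitinase gene USP7 (r = 0.994) and to LIMCH1 (r = 0.987), and ACY3 to ZNF485 (r = 0.973) and the T-cell receptor component CD3G (r = 0.970). RHEX was nearest to SESN3 (r = 0.966) and TMEM107 (r = 0.965), HEMGN to the immune receptor SLAMF6 (r = 0.984) and SSBP2 (r = 0.981), and LGALS1 to BX571818.1 (r = 0.976) and AC010329.1 (r = 0.974). SLAMF6 stood at 73.0 CPM in KO GSI and 36.0 CPM in KO DMSO libraries, and at 55.8 CPM in NT GSI and 27.0 CPM in NT DMSO libraries. RXRA was nearest to the glutamine transporter SLC38A1 (r = 0.971) and MRPS10 (r = 0.962), and KRT1 to VOPP1 (r = 0.986) and TOMM5 (r = 0.985). CASTOR1 was nearest to TRAM2 (r = 0.995) and CTDSP1 (r = 0.991), and AMIGO3 to TMSB15A (r = 0.951) and BRIP1 (r = 0.950).

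In the hg38 annotation, LGALS1 lies at chr22:37675608-37679806 and CASTOR1 on the same chromosome at chr22:30285117-30289627. HEMGN and RXRA share chromosome 9, at chr9:97926791-97944856 and chr9:134317098-134440585. RHEX is at chr1:206052723-206102459, AMIGO3 at chr3:49716834-49719695, ANKRD1 at chr10:90912096-90921276 and ACY3 at chr11:67642555-67650659. KRT1 is at chr12:52674736-52680407 and OLFM4 at chr13:53028759-53052057. All 10 are annotated as protein coding, and the plus strand carries LGALS1, RHEX, OLFM4 and RXRA.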

How the data were processed

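Libraries were poly(A)-selected, stranded and paired-end, per the labels' protocols. The authors deposited expected (estimated) counts per gene as rounded whole numbers, and estimated counts and TPM per transcript for each library, per the file headers. Salmon 1.4.0, HISAT2 2.2.1, FastQC 0.11.9 and bcl2fastq 2.20 and the build hg38 are named, per the submitters' processing notes, without roles. How transcripts were summed to genes is not given in the sources used here. All 206601 transcripts matched GENCODE release 29, which gave coordinates, and 58207 of 58735 gene identifiers had a symbol.

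Genes were filtered with filterByExpr and fitted with edgeR 4.0.16 (quasi-likelihood F test, R 4.3.3) on all 18 libraries, with 1 mean per group and 12 residual degrees of freedom. TMM factors were 0.954 to 1.03 and the common biological coefficient of variation 0.0965. P-values were adjusted by Benjamini-Hochberg over the 17346 genes, and a gene was called under 0.05. The fit was tested on simulated data. DESeq2 1.42.0 and limma 3.58.1 served as alternatives. Values of the 10 genes in comparisons with GSI libraries carry no test. Likeness used a prior count of 2 on log2 CPM.

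The 10 genes and the gene and marker lists were chosen with earlier results of these data known. Named list genes are up to 4 called genes per comparison with the largest fold. The variance-stabilised table was not used. The rest of the B-cell marker list is not reported here.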

Additional observations from a re-analysis of the deposited data

Results flagged for a closer look

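The response to CB-103 differed between KO and NT cells for 6 of the 10 genes, by edgeR's interaction contrast adjusted over all genes. As log2 fold change over DMSO in KO minus that in NT cells, the value was 2.21 for KRT1, 1.36 for OLFM4, 1.09 for ACY3, 1.03 for CASTOR1, 0.52 for HEMGN and 0.46 for RHEX. Over the same contrast 10.3% of all tested genes were called higher and 4.34% lower. The DMSO libraries in it also served the comparisons that led to the choice, so the count of 6 is not independent of it. With single libraries left out 4 to 6 of the genes were called, and the RHEX and ACY3 calls were lost in some of those fits. PIK3R1 had 0.81 ± 0.13 in this contrast (edgeR adjusted p = 0.00034).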

How the results depend on the processing

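Of 1299 tested values of the 10 genes under alternatives (DESeq2 size factors, DESeq2's Wald test, limma-voom, no count filter, a fit of only the groups compared, a replicate block, gene sums of transcript estimates, replicates 2 and 3 only, and each library left out), 1254 kept direction and call, 31 lost the call, 7 gained it and 7 changed sign, all of them short of a call either way. The sign changes were AMIGO3 in KO against NT cells under DMSO without KO DMSO replicate 1 (0.19) or NT DMSO replicate 3 (0.03), under CB-103 with limma-voom (-0.33) or without KO CB-103 replicate 3 (-4.67), and in the difference of CB-103 responses without that library (-4.47), RHEX with CB-103 in NT cells without NT CB-103 replicate 2 (-0.01), and ACY3 in KO against NT cells under CB-103 with replicates 2 and 3 only (0.05). With single libraries left out, AMIGO3 ranged between -0.62 and 0.19 under DMSO, between -4.67 and 1.48 under CB-103 and between -4.47 and 1.68 in the difference of responses, and RHEX with CB-103 in NT cells between -0.01 and 0.27. The number of the 10 genes called with libraries left out was 8 to 10 for CB-103 in KO and 8 to 9 in NT cells (10 and 8 in all libraries), 4 to 6 for the difference of these responses (6), 9 for KO against NT under DMSO and 7 to 8 under CB-103 (7). Of 1560 untested values 13 moved, 11 of them RXRA, KRT1 or RHEX under gene sums of transcript estimates and the other two AMIGO3. List genes called numbered 35 to 44 for GSI in KO and 33 to 44 in NT cells, and 58 to 64 for CB-103 in KO and 73 to 78 in NT cells, and 22 of 624 list counts moved by over 1.5 times. The causes were not tested.

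The labels do not say that replicate numbers pair the samples, and the main fit had no block for them. Libraries numbered 1 deviated together (correlations 0.257 to 0.352, median 0.299). Those numbered 2 did not in every pair (-0.0713 to 0.173, median 0.114), and those numbered 3 were at 0.047 to 0.147 (median 0.112). The median between different numbers was -0.136. Libraries of the same number thus tended to deviate together, for a cause that was not tested. As a hint from the data, 15 of 18 libraries were closest on average to their own number. With the replicate number as a block, LGALS1 in NT cells with CB-103 (0.27, edgeR adjusted p = 0.031) and CASTOR1 in KO against NT cells under CB-103 (0.26, edgeR adjusted p = 0.044) became calls, and no call was lost. Depth limits AMIGO3 under CB-103, with at most 16 estimated reads in a library. It also limits RXRA in NT GSI libraries, at 14 to 17 estimated reads, and ANKRD1 in KO GSI libraries, at 13 to 22.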

Other observations

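Under CB-103 several genes of the pathway lists also separated KO from NT cells. The 10 genes were picked on differences in the GSI libraries, but genes and lists alike were chosen with earlier results of these data known. Of all tested genes 20.4% were higher and 16.5% lower in KO cells here. The amino acid list (23.5% and 14.7%) and the RXRA partners (20.0% and 15.0%) were near those shares. NOTCH targets stood at 33.3% and 13.3%, and erythroid genes at 30.8% each way. Close relatives of the 10 genes stood at 35.7% and 7.14%, and YAP and TEAD targets at 7.14% and 28.6%. RRAGD, a Rag GTPase that recruits mTORC1 to lysosomes, was 18.2 ± 0.9 CPM in KO CB-103 and 4.92 ± 0.76 CPM in NT CB-103 libraries (SD, n = 3 each, log2 fold change 1.90 ± 0.15 SE, edgeR adjusted p = 5.4e-08). SESN3 was 12.48 CPM in KO and 5.40 CPM in NT cells (edgeR adjusted p = 3.8e-08). NOTCH3 was 21.0 CPM in KO and 11.5 CPM in NT cells (edgeR adjusted p = 0.00056). The nuclear receptor PPARD ran the other way, at 22.9 CPM in KO and 42.9 CPM in NT cells (edgeR adjusted p = 2.4e-08), as did the red cell membrane gene GYPC (log2 fold change -1.36 ± 0.09, edgeR adjusted p = 4.5e-09).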
